A study of Mus musculus with 4 samples.

Results

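Amyotrophic lateral sclerosis (ALS) can be inherited through mutations in many genes other than SOD1. The mouse orthologs of 8 of these, or of genes that are read out in the disease, were followed in the lumbar spinal cord of a mouse that carries mutant human SOD1. They are Tardbp, Optn, Tbk1, Vcp, Ubqln2, Matr3, Stmn2 and Unc13a, and a row belongs to them by its gene name alone. All 8 names were found among the 18674 gene names of the RNA-seq table, in 13 of its 23750 rows, and all 8 had a mean level of at least 1 RPKM (reads per kilobase, corrected for the depth of each library), as did 12987 names in all. Tardbp has 6 rows, 1 for each listed transcript, and its level is their mean. Each of the other members has 1 row.

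Lumbar cord RNA was sequenced in 4 libraries, which are 1 of WT and 1 of G93A mice under vehicle and 1 of each genotype under SD (spermidine), called WT vehicle, G93A vehicle, WT + SD and G93A + SD. G93A mice carry a human SOD1 transgene with a glycine to alanine change, in the H1 high-expresser strain on a B6/SJLF1 background. According to the methods only male mice were treated, and the mice for RNA-seq were 100 days old after 30 days of SD or PBS, which the labels give as injected on 4 occasions a week. For SD, 5 mg/kg given intraperitoneally is stated in a section that does not name these mice. The label of the WT vehicle library names its treatment as none, and another section of the methods names saline as the vehicle. How many animals each library represents is not stated in the sources used here. With 1 library per condition no difference has a replicate check, no test was run, no p-value or error is given, and a difference is called from its size alone, at 1.5-fold or more.

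The proteins of the 8 genes fall into 4 roles. Tardbp encodes TDP-43, the RNA-binding protein that leaves the nucleus and aggregates in most ALS, and Matr3 encodes matrin 3, another nuclear RNA-binding protein. Optn encodes optineurin, a receptor that brings ubiquitinated cargo to autophagosomes, and Tbk1 encodes the kinase that phosphorylates it and also acts in innate immune signalling. Vcp encodes an ATPase that extracts ubiquitinated proteins from membranes and complexes, and Ubqln2 encodes ubiquilin 2, a shuttle that carries ubiquitinated proteins to the proteasome. Stmn2 encodes stathmin 2, a tubulin-binding protein of growing axons, and Unc13a encodes Munc13-1, which primes synaptic vesicles for release. In human neurons TDP-43 keeps cryptic exons out of the STMN2 and UNC13A messages, and these exons are not conserved in the mouse, so the levels of the mouse genes are no readout of that event.

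The upstream sequences of Vcp and Unc13a are shown because these were the members with the largest differences between genotypes (values below). Each is the 250 bases before the gene start from RefSeq on GRCm38.p6, at chr4:43000508-43000757 for Vcp and chr8:71671758-71672007 for Unc13a, both written 5′ to 3′ on the minus strand. Capitals mark matches, on either strand, to the GC box with the letters GGGCGG. They also mark matches to the CCAAT box, searched as CCAAT. The TATA box was searched as TATAAA. No mark here overlaps another.
Vcp: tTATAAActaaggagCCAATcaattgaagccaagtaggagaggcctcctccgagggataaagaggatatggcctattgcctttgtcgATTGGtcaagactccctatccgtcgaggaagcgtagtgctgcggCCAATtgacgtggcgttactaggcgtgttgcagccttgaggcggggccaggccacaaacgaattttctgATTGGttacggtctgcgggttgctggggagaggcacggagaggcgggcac
Unc13a: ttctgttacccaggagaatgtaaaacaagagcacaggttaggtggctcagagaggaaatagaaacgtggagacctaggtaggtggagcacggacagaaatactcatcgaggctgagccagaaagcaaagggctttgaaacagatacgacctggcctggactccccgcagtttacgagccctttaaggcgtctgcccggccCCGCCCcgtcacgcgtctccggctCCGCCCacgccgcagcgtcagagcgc
The Vcp stretch holds 4 CCAAT boxes and 1 TATA box, the latter at 249 bases before the start, and no GC box. Unc13a has 2 GC boxes, at 50 and 26 bases before the start, and neither of the other motifs. Of 32817 upstream stretches of the same length, 32.7% hold a GC box, 33.8% a CCAAT box and 12.4% a TATA box. Among the other members with an upstream sequence, Tardbp and Tbk1 have 3 GC boxes each and Optn has 1, with no CCAAT or TATA box. The cAMP response element TGACGTCA was found in none of these 5 stretches and in 1.55% of all. A match is a description of the letters and does not show that a factor binds.

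The members lie on 7 chromosomes of the mouse genome (GENCODE M21 on GRCm38), and all of them are annotated as protein coding. Tardbp is at chr4:148612382-148627019 and Vcp at chr4:42979963-43000507, both on the minus strand. Optn is at chr2:5020642-5064051, Unc13a at chr8:71624417-71671757 and Tbk1 at chr10:121546455-121586787, also on the minus strand. Stmn2 is at chr3:8509360-8561606, Matr3 at chr18:35562138-35593835 and Ubqln2 at chrX:153498227-153501570, on the plus strand. Their transcripts differ in structure, from the single exon and 3344 bases of Ubqln2 to the 44 exons and 10255 bases of Unc13a.

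The level of each member is given first, since levels in RPKM are per length and can be compared between genes. In WT vehicle cord the order was Stmn2 at 212 RPKM, Matr3 at 89.5, Ubqln2 at 54.7, Tardbp at 21.5, Vcp at 15.7, Optn at 13.7, Unc13a at 13.6 and Tbk1 at 12.9. The upper 4 places were held by the same genes in the same order in every library, with Tardbp taken as the mean of its 6 rows and not their sum. Their mean levels lay at percentiles 99.0, 96.6, 92.3 and 79.8 of the names tested. The other 4 members were close to each other in the WT libraries, between 12.4 and 15.9 RPKM, and the spread that replicates would give is unknown, so their order there is not resolved. In the G93A libraries Optn and Tbk1 were between 11.95 and 14.4 RPKM and Vcp and Unc13a between 6.85 and 9.77 RPKM, and their order there is not resolved either.

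**Figure D1:**
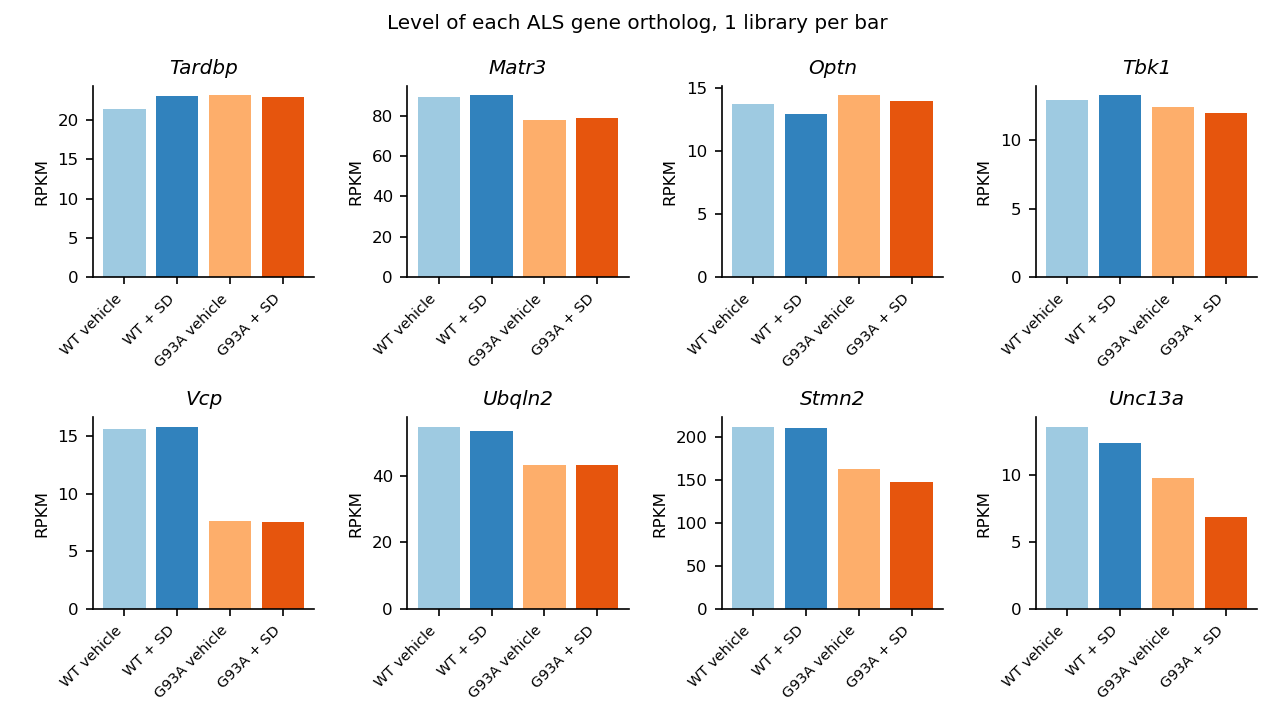
Level of each of the 8 genes in RPKM (vertical axis, from 0, with a scale of its own in each panel) in the 4 libraries (bars, 1 library each, so without error bars). Vcp is near 15.7 RPKM in both WT libraries and near 7.6 in both G93A libraries, and Unc13a is lowest in G93A + SD at 6.85.

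Genotype was compared under vehicle and again under SD, to ask which of the orthologs differ in the cord of the SOD1 model. Vcp was the member with the largest difference, lower by 2.05-fold in G93A vehicle and by 2.11-fold in G93A + SD. Unc13a was lower by 1.39-fold and by 1.81-fold, so that it was called only under SD. Stmn2 was lower by 1.31-fold and 1.42-fold and Ubqln2 by 1.27-fold and 1.23-fold, short of the threshold, and Matr3, Tardbp, Optn and Tbk1 differed by less than 1.15-fold in both comparisons. So 1 of 8 members was called lower and 0 higher in G93A vehicle, where 4.34% of all names tested were called lower and 13.1% higher. In G93A + SD against WT + SD, 2 of 8 were called lower and 0 higher, where 7.85% of names were called lower and 15.8% higher. Log2 differences, here and below of RPKM + 0.1, had a median over the members of -0.27 under vehicle and -0.25 under SD, beside 0.05 for all names in both comparisons. The difference was below 0 for 6 of 8 members under vehicle and for 7 of 8 under SD (6 of 8 if Tardbp is taken from its row with the highest mean), while 43.6% and 44.9% of all names were below 0.

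**Figure D2:**
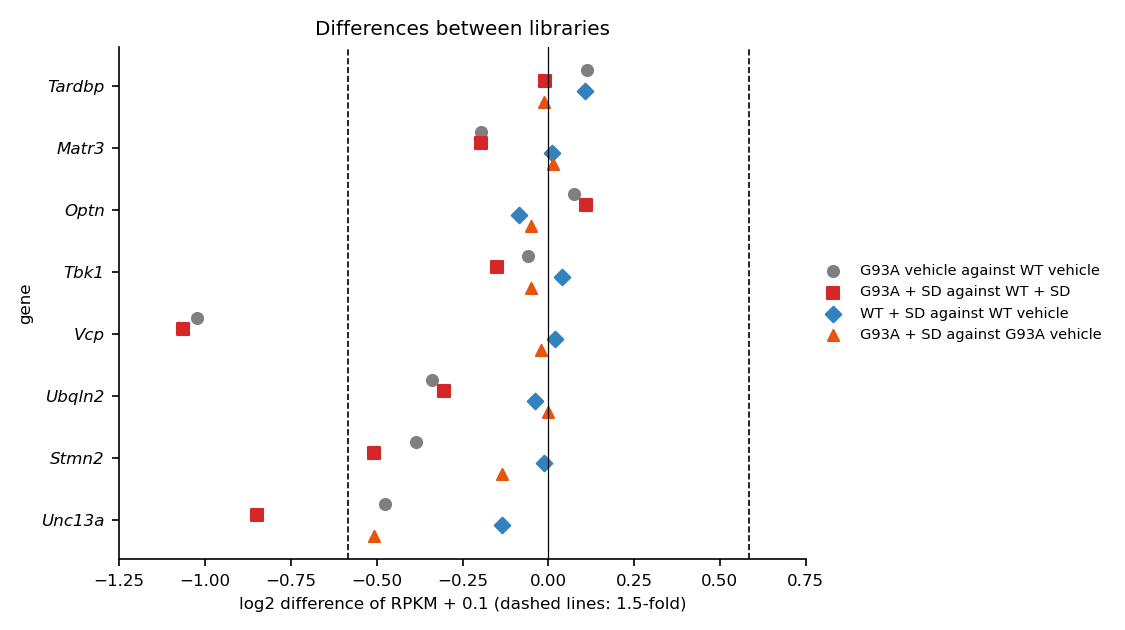
Log2 difference of RPKM + 0.1 (horizontal axis) for each of the 8 genes (rows) in the 4 comparisons between single libraries (symbols). Dashed lines mark 1.5-fold, and only Vcp in both genotype comparisons and Unc13a in G93A + SD against WT + SD lie beyond them.

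Tardbp was at 21.5 RPKM in WT vehicle and 23.1 in WT + SD, against 23.2 in G93A vehicle and 23.0 in G93A + SD. WT vehicle was the lowest library and the other 3 lay between 23.0 and 23.2 RPKM. The log2 difference between genotypes was 0.11 under vehicle and -0.01 under SD, which rank at percentiles 57.3 and 44.0 among all names tested. The sign under SD depends on how its rows are combined, since 4 of 6 rows were above 0 and the row with the highest mean gave 0.02. Its 6 rows gave like values, from 19.5 to 22.5 RPKM in WT vehicle and from 20.3 to 24.4 in G93A vehicle. The lowest of them in every library was the noncoding transcript, whose genotype difference under vehicle was 0.05 against 0.12 for each of the 5 coding transcripts. The rows share most of their exons and are therefore not independent.

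Matr3 was at 89.5 RPKM in WT vehicle and 90.3 in WT + SD, against 78.1 in G93A vehicle and 78.8 in G93A + SD. Both WT libraries were above both G93A libraries, and the log2 difference was -0.20 under vehicle and again under SD. Of its windows of 53 bases, the read length, 28.1% also occur in 1 or more of 79 other genes. Of its 100-base windows, 25.3% also occur in Gm28285, an annotated gene that overlaps it on the same strand and is not listed in the table, so reads of the 2 cannot be told apart there.

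The partners of the pair were taken from a list of 30 nuclear RNA-binding proteins of the hnRNP kind, all of which passed the filter on low values. Of these, 1 was called higher under vehicle and 2 under SD, and 0 were called lower in either. The shares called higher, 3.33% and 6.67%, were below the 13.1% and 15.8% of all names. The list's median log2 difference was 0.15 under vehicle and 0.20 under SD. Ptbp1, a splicing repressor of non-neuronal cells, was at 5.63 and 6.12 RPKM in WT vehicle and WT + SD and at 13.7 and 14.3 in G93A vehicle and G93A + SD. Hnrnpf was at 10.99 and 9.85 RPKM in the WT libraries and at 16.5 and 19.2 in the G93A libraries. Hnrnpa1 and Hnrnpa2b1, relatives of TDP-43 that are themselves ALS genes, had log2 differences between 0.18 and 0.22 in both comparisons, below the threshold. A list of 7 long neuronal genes that depend on TDP-43 in mouse brain had a median of -0.26 under vehicle and -0.33 under SD, and 1 of 7 was called lower in each comparison (14.3%, beside 4.34% and 7.85% of all names). Under vehicle this was Fgf14, at 10.5 RPKM in WT and 6.66 in G93A. Under SD it was Cadps, a vesicle priming factor, at 76.9 RPKM in WT and 44.2 in G93A. Each was lower in the other comparison too, short of the threshold. Log2 differences there were -0.58 for Fgf14 under SD and -0.57 for Cadps under vehicle.

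Optn was at 13.7 RPKM in WT vehicle and 12.9 in WT + SD, against 14.4 in G93A vehicle and 13.9 in G93A + SD. Its level was higher in G93A in both comparisons, by log2 differences of 0.07 and 0.11, and neither is near the threshold. Tbk1 was at 12.9 RPKM in WT vehicle and 13.3 in WT + SD, against 12.4 in G93A vehicle and 11.95 in G93A + SD. Both G93A libraries were below both WT libraries, by log2 differences of -0.06 and -0.15. Across the 4 libraries the highest level was 1.12-fold the lowest for Optn and 1.11-fold for Tbk1, beside 1.08-fold for Tardbp.

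Around this kinase and its receptor, 16 autophagy receptors, TBK1 adaptors and TBK1 substrates were listed, of which 15 passed the filter. Under vehicle 2 were called higher and under SD 3, with 0 lower in either. The shares called higher, 13.3% and 20%, were near the 13.1% and 15.8% of all names, and the median log2 difference was 0.17 and 0.13. Sting1, an adaptor of cytosolic DNA sensing that is listed under its older symbol Tmem173, was at 1.48 and 1.37 RPKM in WT vehicle and WT + SD and at 4.18 and 5.16 in G93A vehicle and G93A + SD. Ticam1, the adaptor of Toll-like receptor 3, was at 1.38 and 1.71 RPKM in the WT libraries and at 3.85 and 4.41 in the G93A libraries. Mavs, the mitochondrial adaptor of RNA sensors, had log2 differences of 0.49 and 0.71 and passed only under SD. The autophagy receptors themselves differed less, with log2 differences of 0.23 and 0.38 for Sqstm1, and of 0.00 and 0.06 for Nbr1. Ikbke, the kinase most like Tbk1, was below the filter at 0.229, 0.352, 0.779 and 0.981 RPKM in WT vehicle, WT + SD and then G93A vehicle and G93A + SD.

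Vcp was at 15.7 RPKM in WT vehicle and 15.9 in WT + SD, against 7.65 in G93A vehicle and 7.53 in G93A + SD. The 2 WT libraries were nearly level, as were the 2 G93A libraries, and the genotypes did not overlap. How many of all names separate by genotype in this way was not counted, here or for any other member. The log2 difference was -1.02 under vehicle and -1.06 under SD, and only 0.508% and 1.247% of all names tested were as low or lower. From the value that 1 read pair is worth in each library, these levels correspond to about 1911, 2012, 964 and 964 read pairs in WT vehicle, WT + SD and then G93A vehicle and G93A + SD.

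The identity of the Vcp reads is uncertain. Vcp-rs, a processed pseudogene at chrX:104345829-104348234 on the minus strand, is nearly a copy of the coding sequence and is not listed in the table. Over the 15 exons of Vcp that are wholly coding, aligned without gaps exon by exon, 2275 of 2298 bases were the same (99.0%), and the lowest share in any of these exons was 94.5%. Of all windows of 100 bases in the Vcp transcript, 1656 of 3217 (51.5%) also occur unchanged in Vcp-rs, and of windows of 53 bases 59.4%. The level of Vcp thus depends on how reads that fit both places were treated, which is not given in the sources used here, and the part of the pseudogene in the genotype difference was not tested. Searched on the same strand, no window of 100 bases of Tardbp, Optn, Tbk1, Ubqln2, Stmn2 or Unc13a occurs in a transcript of another gene. Of windows of 53 bases only Tardbp shares any, at most 2.05% of a row, with the pseudogene Gm13886. On the opposite strand the span of Tardbp overlaps Masp2 by 3118 bases and that of Optn overlaps 4930551O13Rik by 3854. Masp2 was at 4.90, 4.36, 4.11 and 3.81 RPKM in WT vehicle, WT + SD and then G93A vehicle and G93A + SD. Reads from such overlaps cannot be told apart unless counted by strand, which is not stated in the sources used here.

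The expressed neighbours of Vcp were compared in the same way, and those listed under an older symbol were matched by their RefSeq accession. Of 11 other genes that start within 500 kb of the Vcp start and have a mean of at least 1 RPKM, 1 was called lower and 1 higher in both genotype comparisons. Of all names 4.34% were called lower and 13.1% higher under vehicle, and 7.85% lower and 15.8% higher under SD. The log2 differences of the neighbours ranged from -0.77 to 1.18 under vehicle and from -0.99 to 1.13 under SD. The neighbour called lower was N28178, the older symbol of Phf24, at 32.8 RPKM in WT vehicle and 32.9 in WT + SD, against 19.2 in G93A vehicle and 16.5 in G93A + SD. Fancg, which starts 10.0 kb away, was at 2.30, 2.55, 2.44 and 2.35 RPKM in WT vehicle, WT + SD and then G93A vehicle and G93A + SD. Stoml2, 31.2 kb away, was at 10.9, 10.8, 10.97 and 11.2 RPKM in the same order. The neighbour called higher was Cd72, a receptor known from B cells. The gene 1700022I11Rik, which overlaps Vcp on the opposite strand, was at most at 0.0317 RPKM in any library. This window was chosen after the value of Vcp had been seen.

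**Figure D3:**
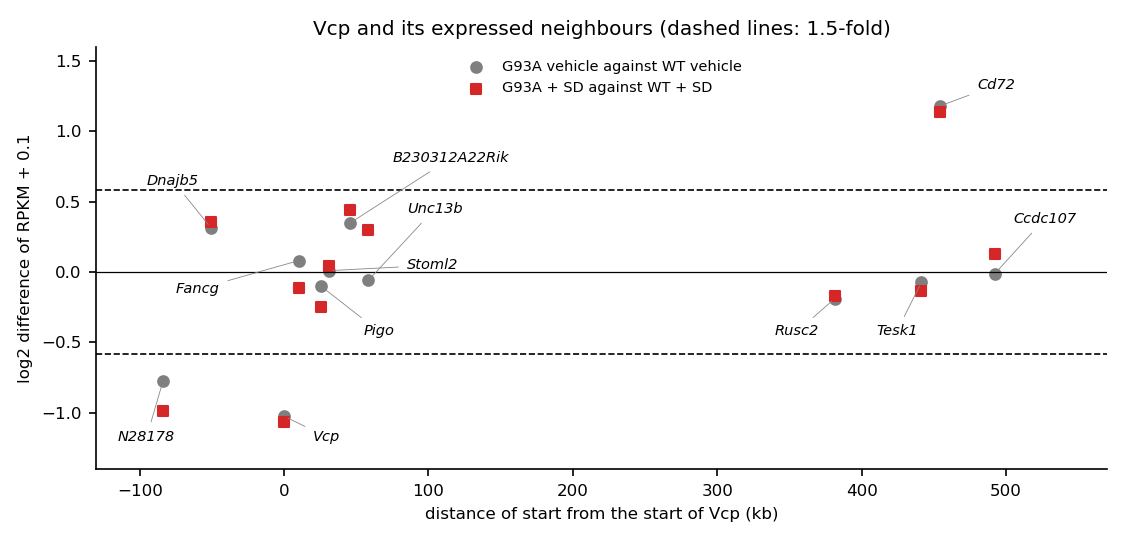
Log2 difference of RPKM + 0.1 (vertical axis) of Vcp and of the 11 expressed genes that start within 500 kb of it, by the distance of their start from the Vcp start in kb, for G93A vehicle against WT vehicle (circles) and G93A + SD against WT + SD (squares). Vcp and N28178 (Phf24) lie below the lower dashed line at 1.5-fold, and Cd72 lies above the upper one.

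Ubqln2 was at 54.7 RPKM in WT vehicle and 53.3 in WT + SD, against 43.2 in G93A vehicle and 43.2 in G93A + SD. Both G93A libraries were below both WT libraries, by log2 differences of -0.34 and -0.30, which 13.8% and 19.8% of all names tested equalled or exceeded downwards. A list of 22 cofactors of the Vcp protein and other ubiquilins, all of which passed the filter, stayed close to the level of all names, with a median log2 difference of 0.01 under vehicle and 0.00 under SD. Of these, 0 were called under vehicle, where 4.34% of all names were called lower and 13.1% higher. Under SD 1 was called lower (4.55%, beside 7.85% of all names) and 0 higher (beside 15.8%). This was Ubxn2a, a cofactor with a UBX domain, at 39.2 RPKM in WT vehicle and 40.8 in WT + SD, against 27.5 in G93A vehicle and 25.9 in G93A + SD. The obligate cofactors of substrate extraction, Nploc4 and Ufd1, had log2 differences of 0.03 and 0.11 under vehicle and of 0.23 and 0.18 under SD. Ubqln1 and Ubqln4, the relatives of Ubqln2, had log2 differences of -0.09 and -0.17 under vehicle and of -0.18 and -0.35 under SD.

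Stmn2 was at 212 RPKM in WT vehicle and 210 in WT + SD, against 162 in G93A vehicle and 148 in G93A + SD. Both G93A libraries were below both WT libraries, with log2 differences of -0.39 and -0.51. The other stathmins did not behave alike. Stmn1, which binds tubulin in dividing and immature cells, was at 42.0 and 43.9 RPKM in WT vehicle and WT + SD and at 17.8 and 15.1 in G93A vehicle and G93A + SD, and it was called lower in both comparisons. Stmn3, a neuronal stathmin, was at 318 and 300 RPKM in WT vehicle and WT + SD and at 231 and 183 in G93A vehicle and G93A + SD, and it was called lower only under SD. Stmn4 was at 120 and 122 RPKM in the WT libraries and at 125 and 122 in the G93A libraries, with log2 differences of 0.06 and 0.00.

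Unc13a was at 13.6 RPKM in WT vehicle and 12.4 in WT + SD, against 9.77 in G93A vehicle and 6.85 in G93A + SD. The 4 libraries are in that order from highest to lowest, and the highest was 1.99-fold the lowest. The log2 difference between genotypes was -0.48 under vehicle and -0.85 under SD, and 7.44% and 2.97% of all names tested were as low or lower. Its estimated read pairs numbered 5147, 4872, 3809 and 2712 in WT vehicle, WT + SD and then G93A vehicle and G93A + SD. Glt25d1, the older symbol of Colgalt1, overlaps the far end of Unc13a by 495 bases on the opposite strand, and was at 10.3, 10.1, 17.2 and 16.9 RPKM in the same order. Whether reads were counted by strand is not given in the sources used here, so reads from that overlap cannot be told apart. Of 25 other expressed genes that start within 500 kb of Unc13a, Glt25d1 among them, 0 were called lower in either genotype comparison, while 5 were called higher under vehicle and 6 under SD. Of all names 4.34% were called lower and 13.1% higher under vehicle, and 7.85% lower and 15.8% higher under SD.

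The list around Unc13a held 14 relatives of Munc13 and other genes of vesicle priming. Of 13 that passed the filter, 4 were called lower under vehicle and 7 under SD, with 0 higher. The shares called lower, 30.8% and 53.8%, stand beside 4.34% and 7.85% of all names and beside 33.3% and 55.6% of 9 neuronal markers. Snap25 and Syt1 are in both lists, 15.4% of the vesicle priming genes and 22.2% of the neuronal markers. The median log2 difference was -0.46 and -0.74, and the one under SD was -0.60 with no filter on low values. Rims1, an active zone scaffold that binds Munc13, was at 11.8 and 11.5 RPKM in WT vehicle and WT + SD and at 5.96 and 5.74 in G93A vehicle and G93A + SD. Snap25, a SNARE protein of the fusion complex, was at 1268, 1292, 782 and 661 RPKM in WT vehicle, WT + SD and then G93A vehicle and G93A + SD. Unc13c was not called under vehicle at -0.45 and was called lower under SD at -0.81. Unc13b was at 2.03, 1.76, 1.95 and 2.20 RPKM in the 4 libraries, the G93A libraries last.

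**Figure D4:**
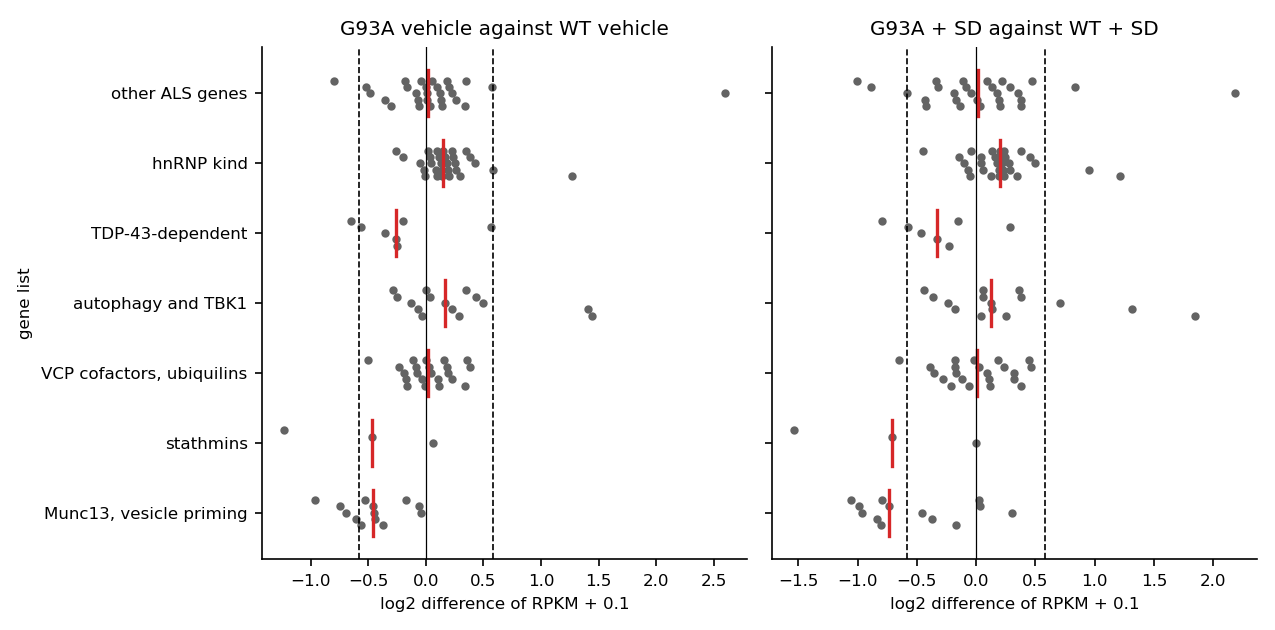
Log2 difference of RPKM + 0.1 (horizontal axis) of the genes of 7 lists (rows, 1 point per gene with a mean of at least 1 RPKM, spread vertically only for sight) in G93A vehicle against WT vehicle (left) and G93A + SD against WT + SD (right). Red bars are list medians and dashed lines are 1.5-fold. The VCP cofactors and ubiquilins centre on 0, while the vesicle priming genes have medians of -0.46 and -0.74.

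In bulk cord fewer cells of a type and less RNA per cell cannot be told apart, and the makeup of the libraries differed with genotype. The labelled tissue was borne out by its markers, with neuronal (Snap25, Eno2 and Tubb3), astrocytic (Gfap, S100b and Aqp4) and oligodendrocytic genes (Mbp and Cnp) high in every library, while 3 Schwann cell and 4 skeletal muscle genes summed to at most 1.41 and 0.561 RPKM. Summed over 9 of 11 neuronal markers (Rbfox3 and Map2, listed under older symbols, were left out), the level was 2049 and 2051 RPKM in WT vehicle and WT + SD and 1330 and 1153 in G93A vehicle and G93A + SD. Rbfox3, listed as D11Bwg0517e, was at 21.2 and 20.4 RPKM in the WT libraries and at 14.3 and 11.98 in G93A vehicle and G93A + SD, and Map2, listed as Mtap2, at 146, 149, 122 and 117 in the same order. For 12 motor neuron markers, led by Nefh, Ache and Slc5a7, it was 520, 492, 305 and 219 RPKM in WT vehicle, WT + SD and then G93A vehicle and G93A + SD. Without Nefh, a neurofilament subunit, the other 11 summed to 193 and 180 RPKM in the WT libraries and to 145 and 120 in G93A vehicle and G93A + SD. Of the 9 motor neuron markers that passed the filter, 8 had a log2 difference below 0 in each genotype comparison. Calca went the other way, at 0.53 under vehicle and 0.25 under SD. For 13 markers of microglia and macrophages, led by C1qa, C1qb and C1qc, it was 157, 134, 1113 and 1137 RPKM in that order, and for 8 astrocyte markers 1485, 1426, 3857 and 4620. Most of the astrocytic difference lay in Gfap and Vim, intermediate filament genes, and the other 6 summed to 1014 and 1011 RPKM in the WT libraries and to 1208 and 1328 in G93A vehicle and G93A + SD. The sum of 8 oligodendrocyte markers was 9060, 9331, 7392 and 6771 RPKM, and that of 4 endothelial markers 29.4, 26.9, 27.7 and 20.98. No gene of the neuronal, microglial or astrocytic lists was at 0 in any library. Relative to the summed neuronal markers, Stmn2 was at 10.4% and 10.2% in the WT libraries and at 12.2% and 12.8% in the G93A libraries. Unc13a was at 0.665% and 0.605% in WT vehicle and WT + SD and at 0.735% and 0.594% in G93A vehicle and G93A + SD. Vcp was at 0.764% and 0.773% in the WT libraries and at 0.575% and 0.654% in the G93A libraries. Snap25 makes up 57.4% to 63.0% of the summed markers, so this scale is mostly that gene. The part of cell makeup in the differences of the members was not tested.

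**Figure D5:**
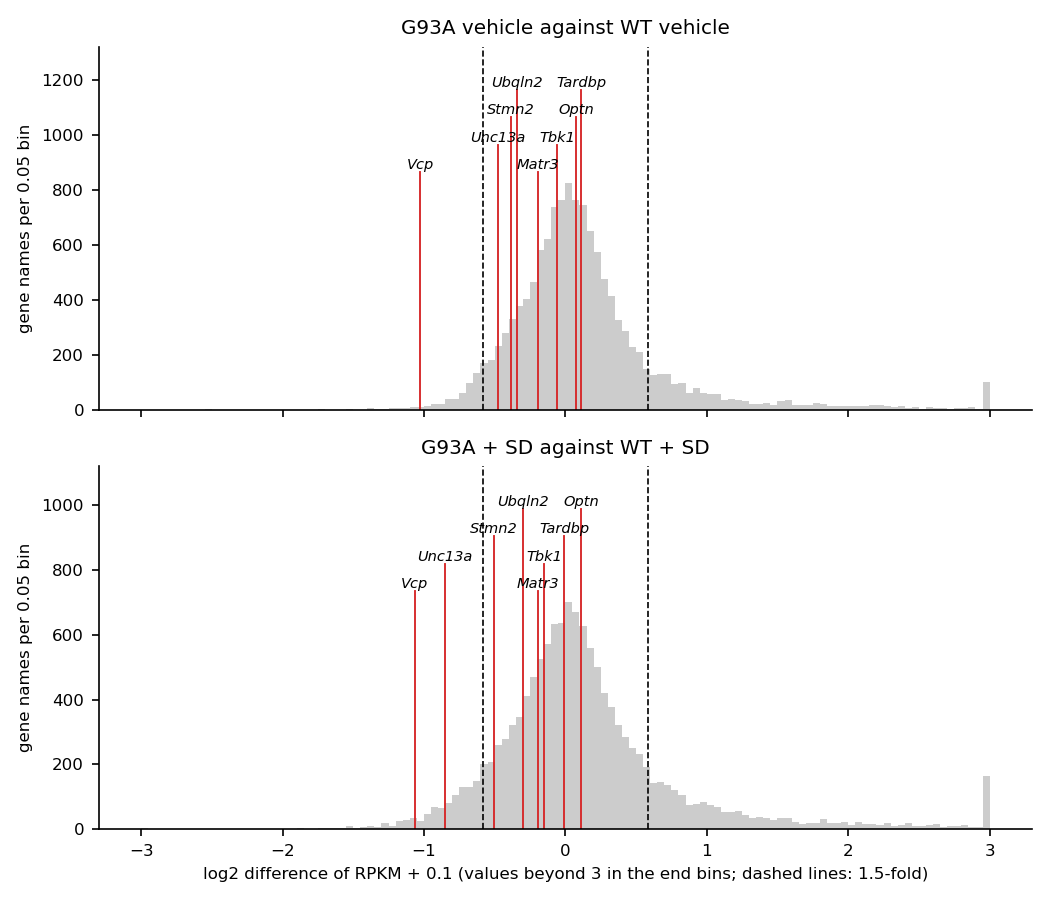
Distribution of the log2 difference of RPKM + 0.1 (horizontal axis, values beyond 3 in either direction gathered in the end bins) over 12987 gene names (grey, names per bin of 0.05) in G93A vehicle against WT vehicle (top) and G93A + SD against WT + SD (bottom). Red lines are the 8 ALS gene orthologs and dashed lines are 1.5-fold. Vcp lies in the lower tail in both panels, at -1.02 and -1.06, and Unc13a moves from -0.48 to -0.85.

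SD was compared with vehicle within each genotype, to ask whether the treatment was accompanied by a difference in these genes. In WT cord 0 of 8 members were called, where 0.732% of names were called higher and 1.16% lower, and the log2 differences of the members ranged from -0.13 for Unc13a to 0.11 for Tardbp. In G93A cord 0 of 8 were called as well, where 1.24% of names were called higher and 0.932% lower. Unc13a came closest there, lower by 1.43-fold with SD at a log2 difference of -0.51, and 1.46% of all names tested were as low or lower. Stmn2 followed at -0.13, and the other 6 members lay between -0.05 and 0.01. The median over the members was -0.04 in G93A and 0.00 in WT, beside 0.01 for all names in both. The members called lower in G93A in either genotype comparison, Vcp and Unc13a, were no nearer to the WT level with SD. Vcp was at 7.65 RPKM in G93A vehicle and 7.53 in G93A + SD, and Unc13a was lower in G93A + SD than in G93A vehicle. Of the genes of the 7 lists around the members, 1 was called in WT cord and 0 in G93A cord. These comparisons share libraries with the genotype comparisons, so the larger genotype difference of Unc13a under SD and its SD difference in G93A rest on the same G93A + SD library. In that library 3 of 9 expressed motor neuron markers were called lower against G93A vehicle, which Unc13a was not. The median over those 9 was -0.44. Of 9 neuronal markers 0 were called in this comparison, with a median of -0.18. The 3 motor neuron markers called lower were Chat, Chodl and Nefh.

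The gene names whose pattern over the 4 libraries was most like those of Vcp and Unc13a were found by the distance between centred log2 profiles among 8846 other names with a mean of at least 5 RPKM. For Vcp they were Ano3 at a distance of 0.08, Rims1 at 0.08 and Gm13629 at 0.09. Ano3, a member of the anoctamin family, was at 11.8 and 11.7 RPKM in WT vehicle and WT + SD and at 5.60 and 5.27 in G93A vehicle and G93A + SD. For Unc13a they were Aard at 0.03, Limk1 at 0.04 and Mast1 at 0.05. Limk1, a kinase of the actin regulator cofilin, was at 48.5, 44.2, 34.0 and 24.9 RPKM in WT vehicle, WT + SD and then G93A vehicle and G93A + SD. The other members spanned less than 1.5-fold over the libraries and were not compared in this way. With 4 libraries such a likeness is a description, and the points share depth and cell makeup.

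The 8 members were also set beside 29 further orthologs of ALS genes, of which 28 passed the filter. Under vehicle 1 was called higher and 1 lower, and under SD 2 were called higher and 3 lower, with medians of 0.02 in both. The shares called higher, 3.57% and 7.14%, were below those of all names (13.1% and 15.8%), and the shares called lower, 3.57% and 10.7%, were near those of all names (4.34% and 7.85%). Erbb4, a neuregulin receptor, was the 1 called lower under vehicle, at 4.19 RPKM in WT and 2.37 in G93A, and Dctn1, a dynactin subunit, was among the 3 called lower under SD, at a log2 difference of -0.59. Ang, which encodes the ribonuclease angiogenin, was at 1.04 and 1.07 RPKM in WT vehicle and WT + SD and at 6.80 and 5.21 in G93A vehicle and G93A + SD. Pfn1, the actin-binding profilin, was at 68.1 and 59.0 RPKM in the WT libraries and at 101 and 105 in the G93A libraries, and it was called higher only under SD. Kif5a, an axonal kinesin, was at 188 and 190 RPKM in WT vehicle and WT + SD and at 135 and 94.9 in G93A vehicle and G93A + SD. Tuba4a, a neuronal tubulin, was at 171 and 167 RPKM in the WT libraries and at 119 and 90.3 in the G93A libraries. Kif5a and Tuba4a were called lower only under SD, as Unc13a was. Mouse Sod1 was at 29.0, 31.1, 31.9 and 29.3 RPKM in WT vehicle, WT + SD and then G93A vehicle and G93A + SD, and the human transgene has no row of its own in the table, so these levels do not check the genotype labels.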

How the data were processed

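Polyadenylated RNA of lumbar spinal cord was sequenced from 4 libraries, 1 per condition, and groups were taken from the sample labels. The submitters' processing notes name STAR and GRCm38 (mm10). The values deposited by the authors were taken as RPKM, a unit inferred because the header names none: the libraries have nearly equal sums of value times transcript length. The authors' methods describe counting on an Ensembl gene set, whereas the rows are RefSeq transcripts, and the step between them is not given in the sources used here. Ratio columns deposited by the authors hold their own comparisons and were not used.

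Rows were averaged per name (23750 rows, 18674 names). Differences were taken as log2(RPKM + 0.1), and a name with a mean of at least 1 RPKM was called at 1.5-fold or more. With 1 library per group no test was run. A model with genotype and treatment as additive terms would leave 1 residual degree of freedom and was not fitted. Depth was estimated at 36800000 to 38600000 read pairs per library, from the commonest low value of RPKM times length, so read pairs are estimates and no interval was derived. The methods name paired-end adaptors, and whether the counted unit is a pair or a single read was not checked. Transcripts, lengths, overlaps and shared windows came from GENCODE M21, and upstream sequences, found for 5 members and not used for the other 3, from RefSeq. All 8 members are named. From each pathway list, genes past 1.5-fold in either genotype comparison and with the same sign in both were named, at most 4 with the largest smaller difference, and a few further genes were named after their values were seen. Some genes that this rule names, and 1 stretch of sequence, are not reported here. Patterns like a member's were sought where its highest library was at least 1.5-fold the lowest. The members and lists were chosen with earlier results of these data known. Scripts ran in Python 3.11.15 with pandas 2.3.3, numpy 2.4.6 and, for plots, matplotlib 3.10.9, and were tested on simulated data.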

Additional observations from a re-analysis of the deposited data

Results flagged for a closer look

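Some members moved in opposite directions under the same contrast in 2 groups. In each case the difference between the groups was not tested, since each group is 1 library. The log2 difference of Tardbp with SD was 0.11 in WT and -0.01 in G93A, so that the second minus the first was -0.121. Its difference between genotypes was likewise 0.11 under vehicle and -0.01 under SD, which gives the same -0.121 because both rest on the same 4 libraries. With the row of the highest mean, Tardbp had 0.02 between genotypes under SD and 0.01 with SD in G93A, so that neither pair of signs is opposite there. Tbk1 had a log2 difference with SD of 0.04 in WT and -0.05 in G93A, apart by -0.0898. Vcp had 0.02 in WT and -0.02 in G93A, apart by -0.0397. All of these are smaller than the median size of the genotype difference over all names, which was 0.24 under vehicle and 0.28 under SD. The median size of the SD difference over all names was 0.08 in WT and 0.11 in G93A. In size, the -0.121 of Tardbp lay above both, the -0.0898 of Tbk1 between them and the -0.0397 of Vcp below both. All these medians are of single differences and not of differences between them, so they are an unlike measure.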

How the results depend on the processing

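Settings that were changed one at a time were a scaling by median ratios, a pseudocount of 1, no pseudocount, the row with the highest mean, the sum of rows, a lower and a higher threshold, and no filter on low values. At a lower threshold, a ratio of 5 to 4, 4 members were called in G93A vehicle against WT vehicle (Vcp, Ubqln2, Stmn2 and Unc13a) and 1 in G93A + SD against G93A vehicle (Unc13a), all lower, where 14.6% and 4.68% of names were called lower. In G93A + SD against WT + SD it called 3 (Vcp, Stmn2 and Unc13a), beside 18.7% of names called lower. At 2-fold, 1 member was called in G93A + SD against WT + SD (Vcp), where 1.52% of names were called lower. The share of names called lower in G93A vehicle against WT vehicle, 4.34%, was 2.56% with a pseudocount of 1, and the other genotype shares moved by less than 1.5 times outside the 2 thresholds. With a pseudocount of 1 and with no filter, the shares with SD were 0.508% and 2.80% lower and 0.293% and 2.25% higher in WT, and 0.508% and 2.55% lower and 0.701% and 2.97% higher in G93A. In the other settings the counts of called members stayed within 1.5 times those reported. Of 160 log2 differences of the members under the first 5 alternatives, 160 stayed within 0.1 of the reported value and 0 changed the sign of a called value. Signs near 0 did change, for Tardbp under SD and with SD in G93A by the row with the highest mean, and for Matr3 with SD in WT by scaling. Of 112 list medians 111 stayed within 0.1 of the reported value, the exception being the vesicle priming genes under SD, at -0.60 with no filter. Scaling shifts all log2 differences between genotypes by 0.05. The labels carry no replicate numbers, a pairing of the genotypes by treatment was not fitted, and with 1 library per condition none could be left out. Each member's level corresponds to about 964 or more estimated read pairs in every library. The lowest are those of Vcp in the G93A libraries, where the identity of the reads is uncertain. The spread between animals is unknown.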
